A study of Mus musculus with 8 samples.

Results

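Type I interferon effector genes are the genes that cells switch on after sensing interferon or foreign nucleic acid, and 35 of them were followed by symbol in dermal cells of newborn C57BL/6 mice, labelled as fibroblasts. The cells received control oligonucleotides in samples 1, 3, 6 and 8 (n = 4) and miR-127-3p mimic oligonucleotides in samples 2, 4, 5 and 7 (n = 4), so both groups were transfected. For controls 3 and 6 the treatment field names both oligonucleotides, so their group was taken from the sample title. Mimics are small double-stranded RNAs made by synthesis that load a microRNA's sequence into the cell, and the labels do not state the sequence of the control oligonucleotides, the dose or the time of harvest. The labels do not say whether samples of a group came from separate animals or cultures, so p-values measure the spread between these samples, which may be technical.

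Of the 35 genes, 32 had a probe bright enough to be tested, among 17093 features tested in all. No probe was matched to Mx1 or Mx2, which were not analysed here, and Oas3 was well above background on too few arrays. All of the 10 fibroblast markers (Col1a1, Col1a2, Col3a1, Dcn, Lum, Pdgfra, Pdgfrb, Thy1, Vim and Fn1) were well above background on all 8 arrays. Each array held 20767 to 23474 probes well above background, no spot was saturated, and all arrays lay on 1 slide. The median log2 fold change over all features was 0.02. RNA came from bulk cultures, in which fewer cells of a type and less RNA per cell cannot be told apart.

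Type I interferons bind a receptor with a pair of chains, Ifnar1 and Ifnar2, whose kinases Jak1 and Tyk2 pass the signal to a complex that holds Stat2 and Irf9. That complex binds a short promoter sequence, the interferon-stimulated response element (ISRE), and so switches on effector genes that cut viral RNA, block translation, trap particles at membranes or feed back on the pathway. Many of the same genes can also be switched on through sensors of duplex RNA or cytosolic DNA, and fibroblasts are known both to make and to answer type I interferon.

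The mature microRNA that the mimic stands for is shown because its seed, the stretch that pairs with target transcripts, defines the treatment. RefSeq places it on mouse chromosome 12 (GRCm38.p6, chr12:109592888-109592909, plus strand), and the capitals mark the seed, bases 2 to 8.
mmu-miR-127-3p: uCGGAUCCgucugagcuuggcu

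Promoters were set beside the values because the effector genes share a route of induction through the ISRE. The letters GAAANNGAAA, a core of that element, were searched on both strands in windows from 250 bases before to 50 bases after each RefSeq start (GRCm38.p6), together with TTCNNNGAA, the core of the gamma-activated site (GAS), the element known from interferon gamma signalling. The table held a promoter for 26 of the 35 genes. The ISRE core lay in 13 of these 26, against 3.99% of all 27025 genes with a promoter, and the GAS core in 6 (23.1%) against 9.55%. The member promoters held 22 ISRE matches, 2 of which overlapped a GAS match. A match is a description of the letters in the window, not a site at which binding was measured.

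The 250 bases before the start are printed 5′ to 3′ along the gene for the 3 tested genes with the largest and the 3 with the smallest log2 fold change that the promoter table holds, and for Isg15, which was added after its values were seen because its 3 matches overlap in 1 run. The capitals mark the ISRE core on either strand.
Rsad2 (chr12:26456453-26456702, minus strand): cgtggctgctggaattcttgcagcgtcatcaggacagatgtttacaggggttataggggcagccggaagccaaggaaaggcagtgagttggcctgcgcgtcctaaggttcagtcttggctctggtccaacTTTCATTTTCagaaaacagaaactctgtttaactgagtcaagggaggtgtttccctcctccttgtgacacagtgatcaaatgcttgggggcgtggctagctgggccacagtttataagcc
Ifit1 (chr19:34640639-34640888, plus strand): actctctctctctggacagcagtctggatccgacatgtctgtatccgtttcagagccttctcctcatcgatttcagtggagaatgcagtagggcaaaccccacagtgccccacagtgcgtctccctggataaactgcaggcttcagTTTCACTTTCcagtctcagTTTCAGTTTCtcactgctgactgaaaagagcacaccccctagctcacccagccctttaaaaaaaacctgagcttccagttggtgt
Irf7 (chr7:141266425-141266674, minus strand): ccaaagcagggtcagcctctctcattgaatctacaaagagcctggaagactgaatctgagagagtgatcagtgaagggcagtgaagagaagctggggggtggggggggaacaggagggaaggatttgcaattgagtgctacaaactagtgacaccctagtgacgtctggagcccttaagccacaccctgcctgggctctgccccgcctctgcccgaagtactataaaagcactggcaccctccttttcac
Isg15 (chr4:156200819-156201068, minus strand): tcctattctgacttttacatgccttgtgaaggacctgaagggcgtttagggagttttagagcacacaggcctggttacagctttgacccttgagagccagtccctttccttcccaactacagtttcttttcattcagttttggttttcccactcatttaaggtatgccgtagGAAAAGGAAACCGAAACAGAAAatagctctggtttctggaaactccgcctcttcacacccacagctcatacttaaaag
Trim25 (chr11:88999153-88999402, plus strand): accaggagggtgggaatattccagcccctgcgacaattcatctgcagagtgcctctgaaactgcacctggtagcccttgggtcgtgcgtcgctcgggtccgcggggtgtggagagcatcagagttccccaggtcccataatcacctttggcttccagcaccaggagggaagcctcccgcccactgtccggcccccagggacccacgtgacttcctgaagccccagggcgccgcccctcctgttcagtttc
Ifit2 (chr19:34550444-34550693, plus strand): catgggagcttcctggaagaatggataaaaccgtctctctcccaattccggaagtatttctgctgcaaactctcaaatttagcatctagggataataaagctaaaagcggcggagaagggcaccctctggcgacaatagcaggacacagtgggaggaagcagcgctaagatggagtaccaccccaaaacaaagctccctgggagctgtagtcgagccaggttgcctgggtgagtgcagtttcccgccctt
Herc6 (chr6:57580742-57580991, plus strand): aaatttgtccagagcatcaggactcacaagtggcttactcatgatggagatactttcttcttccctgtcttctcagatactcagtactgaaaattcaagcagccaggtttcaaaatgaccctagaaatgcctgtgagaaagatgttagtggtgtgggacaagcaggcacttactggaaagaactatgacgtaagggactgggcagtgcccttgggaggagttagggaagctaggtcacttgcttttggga
The first match began 120 bases before the start in Rsad2, 104 in Ifit1 and 78 in Isg15. The windows of Irf7, Trim25, Ifit2 and Herc6 held no match to these letters, and a second listed start of Ifit2 held none either. Large differences were found with and without a match, whereas no tested gene with a match had a log2 fold change below 0.75. Of 12 tested genes with the ISRE core, 9 rose, with a median log2 fold change of 1.69 (0.75 to 2.45), and of 13 tested genes without it, 9 rose, with a median of 1.05 (-0.25 to 2.17).

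The comparison asked how far the effector genes differed between mimic and control transfection and how evenly they did so. With the mimic 22 of the 32 tested genes rose and 0 fell (limma, adjusted p under 0.05), where 15.9% of all features rose and 18.3% fell. The median log2 fold change of the 32 was 1.38, and 31 of them had a value above 0. In 19 genes the rise was at least 2-fold, which 3.57% of all features reached. In 17 genes every mimic array lay above every control array, as in 15.1% of all features. No gene had passed the brightness filter through the mimic arrays alone. Rsad2 and Cmpk2 came nearest, each well above background on 1 control and 3 mimic arrays.

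**Figure D1:**
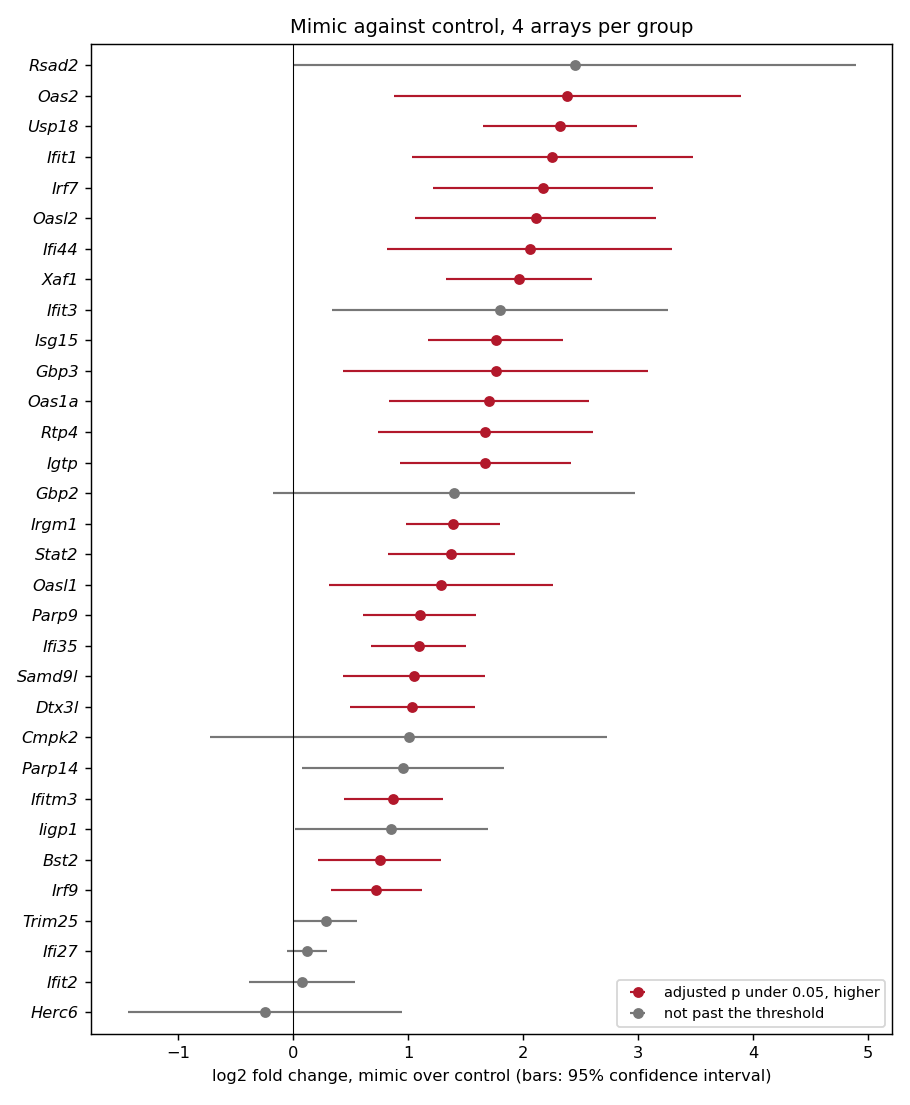
Log2 fold change (mimic over control, x axis) of the 32 tested effector genes (y axis), with 95% confidence intervals from limma before adjustment (n = 4 arrays per group). Red points are the 22 genes that rose at adjusted p under 0.05 and grey points the 10 that did not pass; values run from -0.25 (Herc6) to 2.45 (Rsad2).

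Arrays differed within each group, and they did so in nearly the same order from gene to gene. miR-127-3p 5 was the lowest mimic array in 30 of the 32 genes, against 24.9% of all features and 57.7% of the 610 features that rose at least 2-fold. miR-127-3p 7 was the highest in 27 genes, against 17.5% of all features. Among controls, control 3 was the lowest in 23 genes (71.9%, against 22.7% of all features) and control 8 in 9 (28.1% against 33.4%), while control 6 was the highest in 15 (46.9% against 19.0%) and control 1 in 14 (43.8% against 27.3%). The order 7, 2, 4, 5 from high to low held in 14 genes and the order 7, 4, 2, 5 in 12.

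Measured from each gene's control mean, the median of the 32 genes was 1.37 on miR-127-3p 2, 1.50 on miR-127-3p 4, 0.50 on miR-127-3p 5 and 2.15 on miR-127-3p 7. On control 1, 3, 6 and 8 it was 0.32, -0.38, 0.34 and -0.25. miR-127-3p 5 thus lay nearer to the highest controls than to the other mimic arrays. It exceeded every control in 18 genes, whereas miR-127-3p 2, 4 and 7 did so in 28, 29 and 31. It held 21417 probes well above background and its 75th percentile was 7.68 (log2), both inside the range of the other arrays. Without miR-127-3p 5, 28 genes rose, beside 14.9% of all features, and the median was 1.69. The median SD within a group was 0.42 in controls and 0.65 with the mimic for these genes, against 0.17 and 0.16 over all features.

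**Figure D2:**
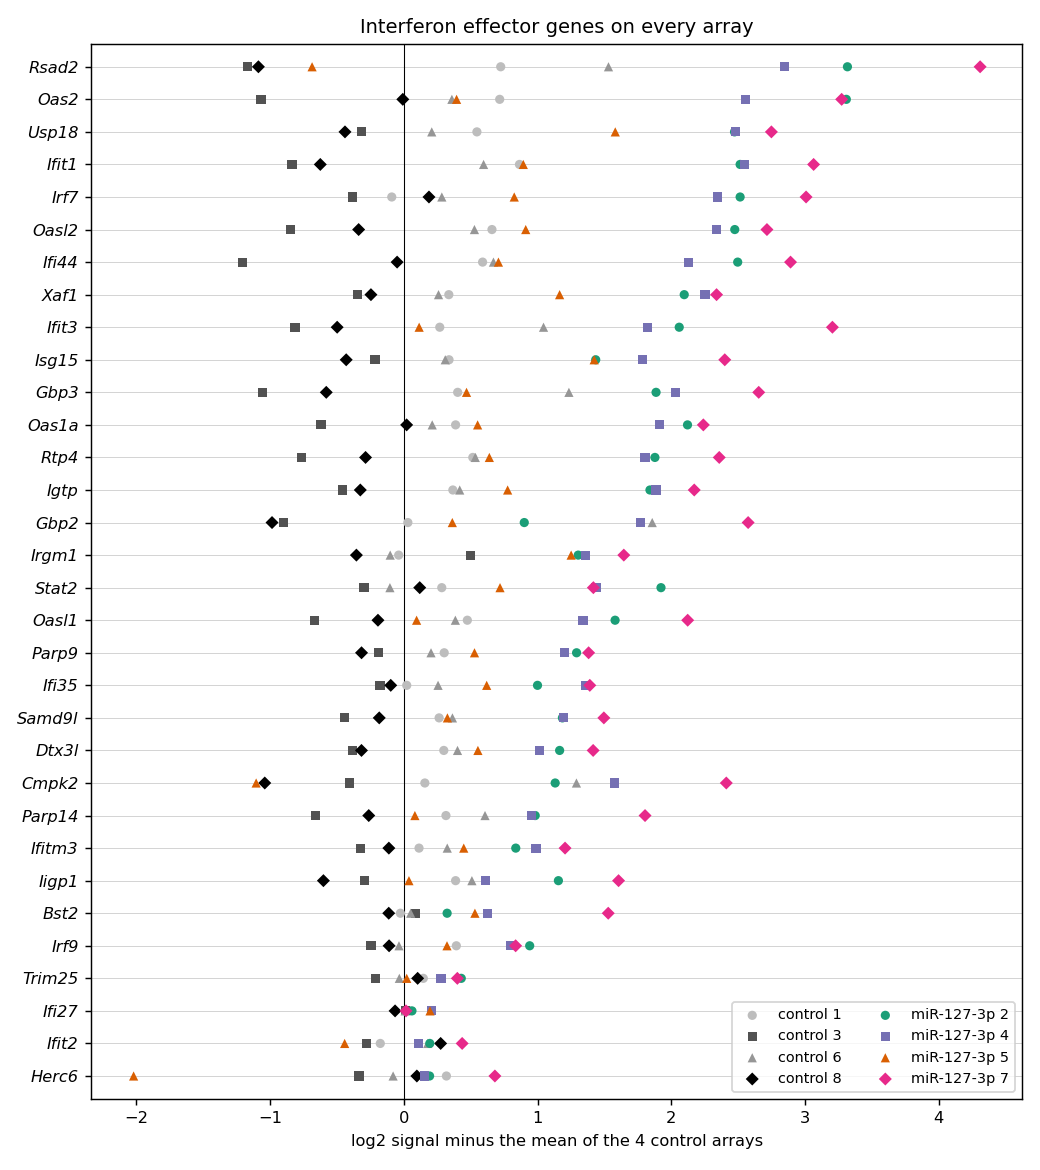
Log2 signal of each effector gene on each array minus the gene's mean over the 4 control arrays (x axis), for the 32 tested genes ordered by fold change (y axis). Grey and black symbols are controls and coloured symbols mimic arrays; miR-127-3p 5 (orange triangles) lies left of the other mimic arrays in 30 genes.

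Values below are levels on the log2 scale relative to each array's 75th percentile, so a level of 0 is the signal of that percentile, and levels of different genes are not comparable because each probe binds with its own strength. Among the transcription factors of the pathway, Irf7, the interferon-induced factor that drives interferon genes, stood at 0.26, -0.03, 0.63 and 0.54 on control 1, 3, 6 and 8 and at 2.86, 2.70, 1.18 and 3.36 on miR-127-3p 2, 4, 5 and 7. The groups did not overlap, although miR-127-3p 5 lay closer to the highest control than to the next mimic array. Irf7 rose by 2.17 (SE 0.42, adjusted p = 0.00480). Stat2, the DNA-bound complex's activating subunit, stood at 2.70, 2.12, 2.31 and 2.53 in controls and 4.34, 3.85, 3.13 and 3.83 with the mimic. The groups did not overlap, and Stat2 rose by 1.37 (SE 0.24, adjusted p = 0.00314). Irf9, which gives that complex its DNA specificity, rose by 0.72 (SE 0.17, adjusted p = 0.0133; 0.0603 with slide column as a block), with its lowest mimic array (2.99) under its highest control (3.06).

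The ISG15 system tags proteins with a ubiquitin-like molecule and removes the tag again. Usp18, which strips ISG15 and also dampens signalling at the interferon receptor, stood at 2.14, 1.27, 1.80 and 1.15 in controls and 4.06, 4.07, 3.17 and 4.34 with the mimic. Every mimic array lay at least 1 log2 unit above every control, and Usp18 rose by 2.32 (SE 0.29, adjusted p = 0.000617), a 5.00-fold difference. Isg15 itself stood at 5.54, 4.99, 5.51 and 4.77 against 6.64, 6.99, 6.63 and 7.60. Here miR-127-3p 5 was level with miR-127-3p 2, and Isg15 rose by 1.76 (SE 0.26, adjusted p = 0.00129), with 2 probes at 1.76 and 1.96. Herc6, the mouse ligase that attaches ISG15, had a log2 fold change of -0.25 (95% interval -1.44 to 0.94, adjusted p = 0.747). It was well above background on 2 arrays of each group, and its value rests on miR-127-3p 5 (-4.35, against -2.18 to -1.65 on the other mimic arrays and -2.67 to -2.01 in controls). Without that array it was 0.34. Another Herc6 probe, well above background on 3 arrays and not tested, differed by 0.27. Trim25, a ligase that activates the RNA sensor RIG-I, differed by 0.28 (95% interval 0.01 to 0.56, adjusted p = 0.105).

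The IFIT proteins recognise viral RNA ends and hold back translation, and their 3 listed genes did not move alike. Ifit1 stood at -0.64, -2.35, -0.91 and -2.13 in controls and 1.01, 1.04, -0.62 and 1.55 with the mimic. Its groups were separated by a narrow margin, since miR-127-3p 5 lay just above control 1, and it rose by 2.25 (SE 0.54, adjusted p = 0.0126; 1.46 with normexp background correction). With slide column, which pairs 1 control with 1 mimic array, as a block its adjusted p was 0.0507. Ifit3 stood at -0.03, -1.11, 0.75 and -0.79 against 1.77, 1.53, -0.18 and 2.91. miR-127-3p 5 lay among the controls, and the difference of 1.80 (SE 0.64) had an adjusted p of 0.0594. Ifit2 stood at -0.87, -0.97, -0.52 and -0.42 against -0.50, -0.59, -1.14 and -0.26. Its groups were interleaved, with a difference of 0.07 (95% interval -0.39 to 0.54, adjusted p = 0.805). Ifit2 and Ifit3 are next to each other on chromosome 19, with 3 genes between Ifit3 and Ifit1. Ifit3 has a near-identical neighbour, Ifit3b, whose own probe differed by 1.88, and hybridisation between the copies makes the value of each uncertain.

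OAS enzymes sense duplex RNA and make the messenger that activates RNase L, and the OAS-like proteins are their relatives. Oas2 stood at -0.71, -2.49, -1.06 and -1.43 in controls and 1.89, 1.13, -1.03 and 1.85 with the mimic. miR-127-3p 5 lay below control 1, the other mimic arrays lay above all controls, and Oas2 rose by 2.38 (SE 0.66, adjusted p = 0.0240). Oas1a stood at 3.49, 2.49, 3.32 and 3.13 against 5.23, 5.02, 3.66 and 5.35 and rose by 1.71 (SE 0.38, adjusted p = 0.00940). Its groups did not overlap, and its 2 probes gave 1.71 and 1.84, but the Oas1 copies are alike enough in sequence that the probes may read more than 1 of them. Oasl2 rose by 2.11 (SE 0.46, adjusted p = 0.00842), with controls between 1.04 and 2.55 and mimic arrays between 2.80 and 4.60. Its chromosomal neighbour Oasl1, which restrains Irf7 translation, rose by 1.28 (SE 0.43, adjusted p = 0.0472), with miR-127-3p 5 (1.23) inside the control range. Oas3, beside Oas2 on chromosome 5, was well above background on 0 control and 3 mimic arrays. Its mean over the mimic arrays was at least 2.23-fold higher. This bound sets the mimic mean against the higher of the background limit and the gene's own signal on each control array. It carries no estimate of error, and the bounds given below for other untested genes were made in the same way. Oas3 stood at -3.97, -3.42, -2.85 and -3.31 in controls and -1.32, -1.20, -2.93 and -1.06 with the mimic, so that miR-127-3p 5 alone lay among the controls. The call of Oas2 was lost without control 3 or 8 or miR-127-3p 2, 4 or 7 (adjusted p 0.0516 to 0.0640), and that of Oasl1 without any of 7 arrays (0.0587 to 0.112), all but miR-127-3p 5. With slide column as a block both calls were lost (0.0637 and 0.109).

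The GTPases attack the membranes of vacuoles that hold pathogens, and interferon gamma is known to induce them as well. Irgm1, a regulator of that family, stood at 2.58, 3.11, 2.51 and 2.26 in controls and 3.92, 3.97, 3.87 and 4.26 with the mimic. It had the tightest mimic group of the GTPases (SD 0.18), with miR-127-3p 5 level with the others, and it rose by 1.39 (SE 0.18, adjusted p = 0.000654). Igtp rose by 1.67 (SE 0.33, adjusted p = 0.00517) with no overlap between 0.43 to 1.31 and 1.67 to 3.06. Gbp3 stood at 0.29, -1.17, 1.12 and -0.69 against 1.77, 1.92, 0.36 and 2.54 and rose by 1.76 (SE 0.58, adjusted p = 0.0456). Its groups overlapped, and the call was lost without control 1, 3 or 8 or miR-127-3p 2, 4 or 7 (adjusted p 0.0711 to 0.114) and with slide column as a block (0.0943). Gbp2 stood at 0.64, -0.29, 2.47 and -0.37 against 1.51, 2.38, 0.97 and 3.19. Control 6 lay above 3 of the 4 mimic arrays, and the difference of 1.40 (SE 0.69) had an adjusted p of 0.151. Without control 6 it was 2.02 (adjusted p = 0.0246). Iigp1, dim in controls, differed by 0.85 on its brightest probe and 1.30 on another (adjusted p = 0.106 for the brightest, whose difference was 0.43 with normexp). The Gbp genes are close relatives, so that probes may read more than 1 of them.

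Rsad2 (viperin), which makes a chain-terminating nucleotide, was well above background on 1 control and 3 mimic arrays, had the largest fitted log2 fold change of the 32 genes and did not pass the test. It stood at -2.43, -4.32, -1.62 and -4.24 in controls and 0.17, -0.31, -3.84 and 1.16 with the mimic. On 3 mimic arrays it lay above all controls, and on miR-127-3p 5 it lay among the lower controls, so the difference of 2.45 had an SE of 1.07 and an adjusted p of 0.112. Without miR-127-3p 5 the difference was 3.49 (adjusted p = 0.00836). Its size also depended on the treatment of dim signals, since normexp background correction gave 1.11, below Usp18 (2.12), Irf7 (1.86) and Isg15 (1.73) under the same setting. Cmpk2, the adjacent gene on chromosome 12 and the maker of viperin's substrate, also had miR-127-3p 5 as its lowest and miR-127-3p 7 as its highest mimic array, with a difference of 1.00 (95% interval -0.72 to 2.73, adjusted p = 0.340), 0.34 with normexp and 0.53 without miR-127-3p 7. Without miR-127-3p 5 it was 1.71 (adjusted p = 0.0461), and in slide row 1 alone 1.48 (adjusted p = 0.0374). Another Cmpk2 probe, well above background on 3 arrays and not tested, differed by 1.72.

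The membrane proteins Ifitm3 and Bst2 block virus entry and release. Ifitm3 stood at 6.67, 6.23, 6.88 and 6.44 in controls and 7.39, 7.54, 7.00 and 7.76 with the mimic. The groups did not overlap, and it rose by 0.87 (SE 0.19, adjusted p = 0.00837). Bst2 (tetherin) stood at 4.89, 5.01, 4.97 and 4.80 against 5.24, 5.54, 5.45 and 6.45. Its groups did not overlap either, yet miR-127-3p 7 lay apart from the other mimic arrays, and the rise of 0.75 (SE 0.23, adjusted p = 0.0373) was lost without any 1 control or without miR-127-3p 4 (adjusted p 0.0558 to 0.0857). Without miR-127-3p 7 it was 0.49 (adjusted p = 0.0126).

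Parp14, Dtx3l and Parp9 lie side by side on chromosome 16, and Parp9 and Dtx3l proteins act as a pair. They had log2 fold changes of 0.96 (SE 0.38), 1.04 (SE 0.24) and 1.10 (SE 0.21). Dtx3l and Parp9 rose (adjusted p = 0.0104 and 0.00512, no overlap), and Parp14 did not pass (adjusted p = 0.0870), with a wider spread in controls (SD 0.57 against 0.41 and 0.30). Among the remaining genes Xaf1, which promotes cell death, rose by 1.96 (SE 0.28, adjusted p = 0.00107), from 1.41 to 2.10 in controls to 2.92 to 4.10 with the mimic. Ifi44 rose by 2.06 (SE 0.54, adjusted p = 0.0195), a call lost without miR-127-3p 7 (adjusted p = 0.0524) and with the column block (0.0587). Rtp4, a receptor chaperone, rose by 1.67 (SE 0.41, adjusted p = 0.0144; 0.0526 with slide column as a block). Ifi35 rose by 1.09 (SE 0.18, adjusted p = 0.00245). Samd9l, which restricts poxviruses, rose by 1.05 (SE 0.27, adjusted p = 0.0178), a call lost without miR-127-3p 4 (adjusted p = 0.0503) and with the column block (0.0578). Ifi27 stood between 6.22 and 6.33 in controls and between 6.30 and 6.49 with the mimic. It was the least variable of the 32 genes within the control group (SD 0.05), with a difference of 0.12 (95% interval -0.06 to 0.30, adjusted p = 0.263).

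The genes were then divided by size into 7 strong (log2 fold change of at least 2), 16 moderate (1 to under 2) and 9 weak ones (under 1). The strong genes were Rsad2, Oas2, Usp18, Ifit1, Irf7, Oasl2 and Ifi44, and the weak ones Parp14, Ifitm3, Iigp1, Bst2, Irf9, Trim25, Ifi27, Ifit2 and Herc6. Because the classes were made from the same arrays, their differences are a description. Of the strong genes 6 passed the test, of the moderate 13 and of the weak 3. The strong genes were also the most variable within groups: the median SD was 0.77 in controls and 0.94 with the mimic, against 0.42 and 0.58 in the moderate and 0.28 and 0.37 in the weak class. Their control signals had the lowest median level, -1.20, against 1.48 in the moderate and 2.66 in the weak class. The classes overlapped widely in control level, from -3.15 to 1.89 in the strong, -3.38 to 5.20 in the moderate and -2.33 to 6.56 in the weak. Gene by gene the relation was loose, with a Spearman's rho of -0.26 between control level and difference across the 32 genes. Membership depended on background correction. With normexp Ifit1 was 1.46 and Ifi44 1.37, under the limit of 2, while Usp18 stayed at 2.12. How far class and spread follow dim signal was not tested. Array by array, the strong genes had medians of 2.51, 2.48, 0.83 and 3.01 above the control mean on miR-127-3p 2, 4, 5 and 7, the moderate 1.51, 1.67, 0.55 and 2.21, and the weak 0.43, 0.61, 0.08 and 0.84. Controls spread in step, from -0.85 (control 3) to 0.66 (control 1) in the strong class and from -0.28 to 0.15 in the weak class. miR-127-3p 5 was the lowest mimic array in 7 of 7 strong, 16 of 16 moderate and 7 of 9 weak genes. The exceptions were Ifi27 and Bst2. The ISRE core lay in 2 of 5 strong, 8 of 14 moderate and 2 of 6 weak genes with a promoter.

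**Figure D3:**
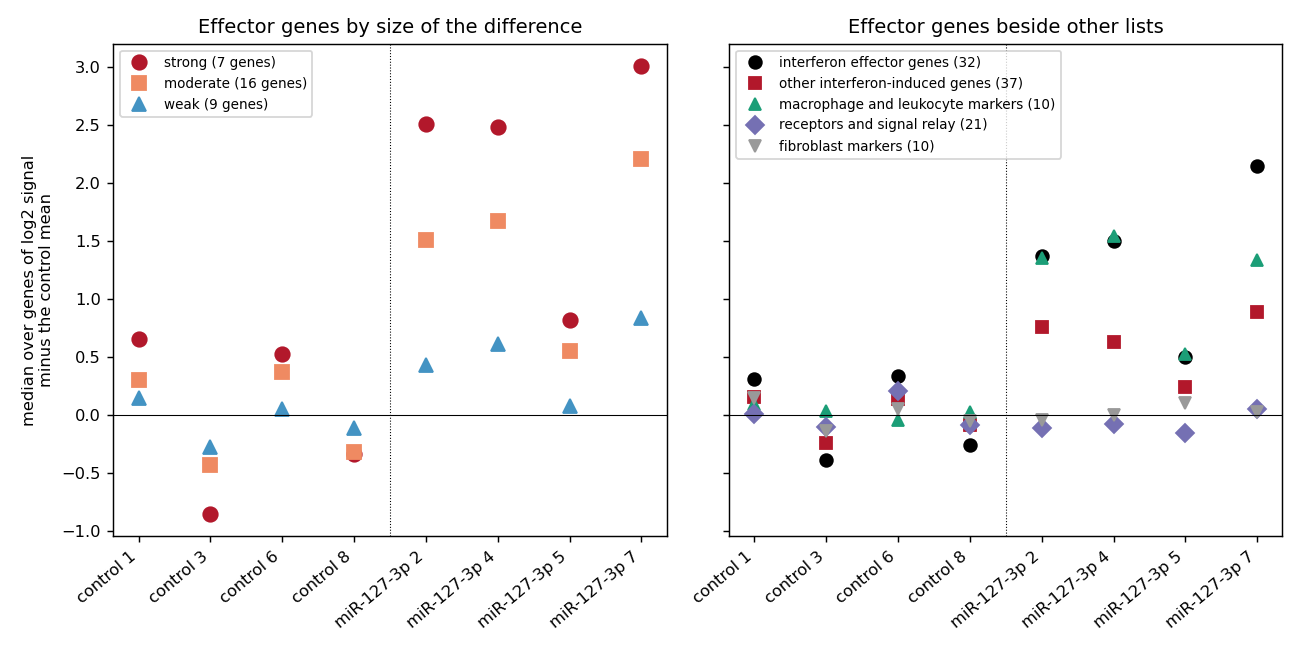
Median over genes of the log2 signal minus the control mean (y axis) on each array (x axis), for the strong, moderate and weak effector genes (left panel) and for all effector genes beside 4 other lists (right panel). The dotted line parts control from mimic arrays; on miR-127-3p 5 the strong genes had a median of 0.83, against 2.48 to 3.01 on the other mimic arrays.

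The slide's rows each held 2 arrays of each group, which allowed the ranking to be set against arrays that had not made it. In row 1 (control 1 and 3, miR-127-3p 2 and 4) the median log2 fold change was 1.55 and 17 of the 32 genes rose, where 4.49% of all features did. In row 2 (control 6 and 8, miR-127-3p 5 and 7) the median was 1.06 and 1 gene, Irgm1, rose, where 4.01% of all features did. The fold was smaller in row 2 in 27 of the 32 genes. Row 2 holds miR-127-3p 5, so row and array cannot be told apart. Of 11 genes with at least 2 in row 1, the row 2 values had a median of 1.66 (1.23 to 2.28). Of 14 genes between 1 and 2 in row 1 it was 1.01 (0.53 to 1.97), and of 7 genes under 1 it was 0.18 (-0.68 to 1.06). In the reverse direction the bands were less apart. Only 1 gene, Usp18, had at least 2 in row 2. The 19 genes between 1 and 2 in row 2 had a row 1 median of 2.13 (0.44 to 3.30). For the 12 genes under 1 in row 2 the row 1 median was 0.93 (0.11 to 1.48). Across the 32 genes, which share their arrays and are not independent replicates, Pearson's r between the rows was 0.79 and Spearman's rho 0.80. Usp18 differed by 2.36 and 2.28 in rows 1 and 2, whereas Rsad2 differed by 3.30 and 1.59. Isg15, Irgm1, Bst2, Iigp1 and Ifi27 were larger in row 2.

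**Figure D4:**
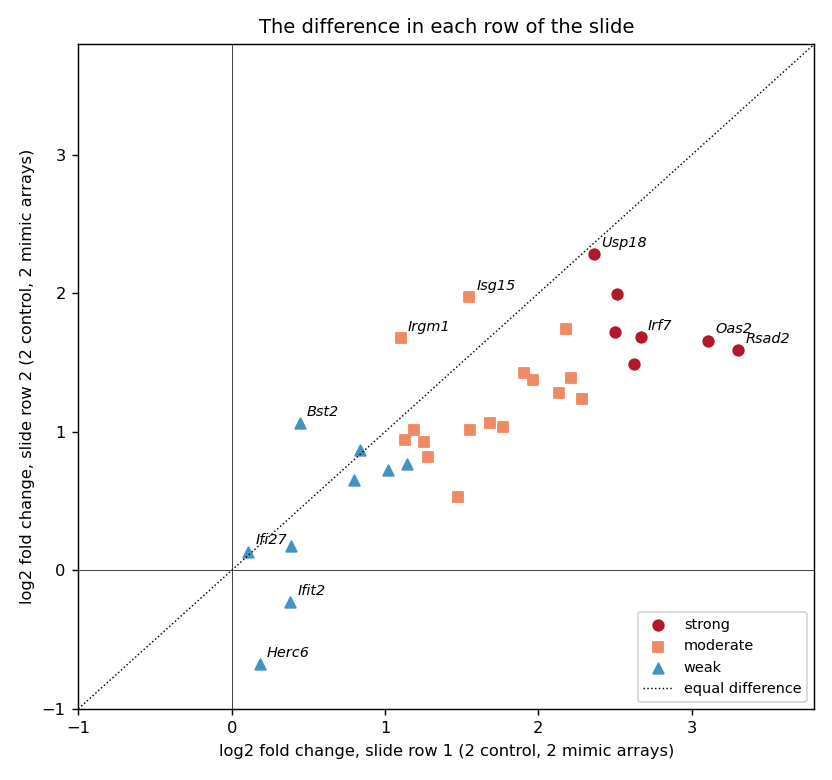
Log2 fold change of the 32 effector genes in slide row 1 (x axis) and slide row 2 (y axis), each from 2 control and 2 mimic arrays, with symbols for the 3 size classes. The dotted line marks equal differences; 27 genes lie below it, and Irgm1, Isg15, Bst2, Iigp1 and Ifi27 lie above.

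Upstream of the effector genes, 2 of the 15 interferon ligands with a probe were bright enough to test and neither passed: Ifnl3 differed by 0.27 (adjusted p = 0.117) and Ifnab by -0.11 (adjusted p = 0.678). Ifnb1, Ifna2, Ifna4 and Ifng were among 8 ligands well above background on 0 arrays, which for a bulk array is a limit of detection, not absence. Ifna1 was well above background on 0 control and 2 mimic arrays and Ifna7 on 0 and 1. In both every mimic array lay above every control, at least 1.37-fold and 1.22-fold higher. The Ifna copies are near-identical, so these values are uncertain. Of 21 tested genes of the receptors and signal relay, 1 rose and 4 fell (median -0.07), beside 15.9% and 18.3% of all features, so the falls were near the share over all features. Ifnar1, a chain of the type I receptor, stood at 2.12, 2.01, 2.34 and 2.04 in controls and 1.64, 1.52, 1.71 and 1.73 with the mimic. The groups did not overlap and it fell by 0.48 (SE 0.10, adjusted p = 0.00603). Ifnar2 differed by -0.21 (adjusted p = 0.106) and Tyk2 by 0.13 (adjusted p = 0.595). Jak1 fell by 0.41 (adjusted p = 0.0227), Stat3 by 0.33 (adjusted p = 0.0134) and Ifngr1, a chain of the interferon gamma receptor, by 0.77 (adjusted p = 0.00578), while Il10rb, a chain shared with the lambda interferon receptor, rose by 0.45 (adjusted p = 0.0440).

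Of 10 tested sensors of nucleic acids, 7 rose and 1 fell (median 0.88), beside 15.9% and 18.3% of all features. Eif2ak2 (PKR), a kinase that stops translation when it meets duplex RNA, rose by 0.91 (adjusted p = 0.00154), Ddx58 (RIG-I) by 1.10 (adjusted p = 0.00291) and Adar, which edits duplex RNA, by 0.86 (adjusted p = 0.00307). Cgas, the sensor of cytosolic DNA and itself interferon-inducible, fell by 1.07 (adjusted p = 0.00112) with no overlap. Of 37 other interferon-induced genes, 19 rose and 1, Sp110, fell (median 0.58), beside the same shares of all features. Oas1c stood between -1.88 and -1.57 in controls and between -0.26 and 0.26 with the mimic and rose by 1.81 (SE 0.13, adjusted p = 4.2e-05). Lgals3bp rose by 1.30, Lgals9 by 0.97 and Ly6e by 0.79 (adjusted p = 0.000646, 0.000931 and 0.000828). miR-127-3p 5 was again the lowest mimic array in 32 of these 37 genes.

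Markers of macrophages and leukocytes moved in the same comparison. Of 13 listed, 10 were tested, 9 rose and 0 fell (median 1.19), beside 15.9% and 18.3% of all features. Their summed level was 5.19 to 5.52 in controls and 6.03 to 6.25 with the mimic (log2 of the summed signals). Most of this sum is the signal of 1 bright marker, Itgam, so it says little about the list. Itgam rose by 0.51 (SE 0.16, adjusted p = 0.0366). Its groups overlapped (4.62 to 5.10 in controls, 5.09 to 5.71 with the mimic), and miR-127-3p 5 was its highest mimic array. Among the 10 tested markers miR-127-3p 5 was the lowest mimic array in 9. The array medians of the list were 1.35, 1.54, 0.53 and 1.34 on miR-127-3p 2, 4, 5 and 7 against -0.04 to 0.09 in controls. The lysozyme gene Lyz2 rose by 1.79, C1qa by 1.37, Cd68 by 1.30 and the receptor gene Csf1r by 1.04 (adjusted p = 0.000201, 0.00635, 0.00441 and 0.000806), each without overlap between the groups. Of the 3 markers not tested, Laptm5 was well above background on 0 control and 3 mimic arrays and at least 1.95-fold higher with the mimic, while Ptprc (CD45), shared by all leukocytes, and Aif1 were so on 0 arrays. Macrophages also express many of the effector genes, and the part of these markers in the result was not tested. Of the other cell type lists, 0 of 2 plasmacytoid dendritic cell, 0 of 2 lymphocyte, 0 of 2 endothelial, 1 of 5 keratinocyte (Krt10) and 1 of 4 melanocyte markers (Pmel) rose among those tested, and none fell. Cdh5, an endothelial marker too dim to be tested, was well above background on 0 control and 3 mimic arrays, the pattern seen for Laptm5. Its levels ran from -4.67 to -3.39 in controls and from -2.89 to -1.34 with the mimic, without overlap. The lower bound on its difference was 1.97-fold. The untested endothelial markers Tek and Emcn overlapped between groups. Of the 10 fibroblast markers 1 rose and 2 fell. Over all features 15.9% rose and 18.3% fell. The counts of tested genes in these other lists, each of few genes, do not stand apart from that share, but they leave out Cdh5 and the size of the differences. The median log2 fold change was 1.01 for melanocyte, 0.83 for plasmacytoid dendritic cell and 0.70 for keratinocyte markers, against 0.02 over all features. It was 0.12 for lymphocyte, 0.04 for fibroblast and 0.03 for endothelial markers. Upward medians were thus not particular to the macrophage list.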

How the data were processed

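RNA of 8 samples was hybridised to single-colour Agilent mouse gene expression arrays. The scanner tables hold the intensity of each spot, background-subtracted and with no scaling between arrays. Per the file headers, the authors' software was Agilent Feature Extraction 11.5.1.1. The deposited value table holds log2 values equal to these intensities minus 1 constant per array and was used as an alternative. Control and outlier spots were left out, spots of a probe averaged (55681 probes), and each array's 75th percentile of log2 signal subtracted. Symbols came from RefSeq accessions (GRCm38.p6 table, 28331 probes matched). A probe was tested if well above background on at least 4 of 8 arrays, and the brightest tested probe stood for its gene. The comparison used limma 3.58.1 under R 4.3.3 (lmFit, eBayes, two-sided, Benjamini-Hochberg over 17093 features, threshold 0.05), tested on simulated data, and adjusted p-values are from this fit.

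The 35 genes, the other lists and the tests were chosen with earlier results of these data known. All 35 genes are named, and of each pathway list and the macrophage list the 4 tested genes with the smallest p, plus ligands, receptor chains and markers where detection is described. The remaining marker lists are given as counts and medians, with detection described for Cdh5 after its values were seen. Other genes named were chosen after their values were seen. Alternatives were normexp with an offset of 50 (on the median signals, as the mean signal was not used here), quantile normalization, other filters and probe rules, slide row or column as a block, each row alone, other variance models, and each array left out.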

Additional observations from a re-analysis of the deposited data

Results flagged for a closer look

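For each effector gene with a probe, the arrays of a group were searched for 1 array far from the other 3, by Dixon's ratio of its gap to the group's range. Of 66 such groups 1 passed, and chance passes about 1 in 20. It was Oas3 on miR-127-3p 5, with a gap of 0.862 of the range: the level was -2.93 there and -1.32 to -1.06 on the other mimic arrays. Oas3 was not well above background on that array or on any control.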

How the results depend on the processing

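Over 21 alternative settings the members called lower stayed at 0, and their median log2 fold change lay between 1.06 (slide row 2 alone) and 1.69 (without miR-127-3p 5). The number that rose was 14 with slide column as a block and 1 in slide row 2 alone, against 22, while the share of all features that rose was 10.4% and 4.01%, against 15.9%. The column block ended the calls of Gbp3, Ifi44, Ifit1, Irf9, Oas2, Oasl1, Rtp4 and Samd9l. The number was 17 to 28 when 1 array was left out, lowest without miR-127-3p 4 (10.9% of all features) and highest without miR-127-3p 5 (14.9%), where Cmpk2, Ifit3, Iigp1, Parp14, Rsad2 and Trim25 also rose. In the other settings it was 17 (no filter on dim probes, 4.48% of all features; also slide row 1 alone) to 23. Of the 22 genes, 13 kept their call in all 19 settings with at least 3 arrays a group. Herc6 turned positive with normexp (0.082), in slide row 1 alone (0.18) and with array weights (0.0026), and ran from -0.56 to 0.34 when 1 array was left out. Ifit2 was -0.23 in slide row 2 alone and ran from -0.046 to 0.25 when 1 array was left out. The cause was not tested. A fit of 2 arrays against 2 has few degrees of freedom. Dim genes (Rsad2, Cmpk2, Herc6, Oas3) are limited by signal over background. No paired analysis by replicate number was possible because the groups share none; the slide column, which holds 1 control and 1 mimic array, gave the only pairing of arrays that could be fitted.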

Other observations

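Of 11 tested genes best known for induction by interferon gamma, 3 rose and 0 fell, with a median log2 fold change of 0.62, beside 15.9% and 18.3% of all features that rose and fell. Gbp7 rose by 2.00 (SE 0.30, adjusted p = 0.00143), Irgm2 by 1.87 (SE 0.32, adjusted p = 0.00278) and Cd274 (PD-L1) by 1.43 (SE 0.46, adjusted p = 0.0410). Gbp7 was well above background on 2 control and 4 mimic arrays and Cd274 on 1 and 4. The size of both rises therefore rests on dim control signals. Psmb8, a subunit of the immunoproteasome, differed by 0.68 (adjusted p = 0.129). Cxcl10, a chemokine picked out after its values were seen, stood at 1.15, -0.13, 4.38 and -0.29 on control 1, 3, 6 and 8 and at -0.07, 1.59, -0.54 and 4.35 on miR-127-3p 2, 4, 5 and 7. One array of each group, control 6 and miR-127-3p 7, was far above the rest, and the group difference was 0.06 (SE 1.30, adjusted p = 0.978). Irf1, also chosen after its values were seen, had its highest levels on the same arrays (3.78 and 3.31, against 2.08 to 2.95 elsewhere), with a group difference of -0.31 (adjusted p = 0.533). In 15 of the 32 effector genes control 6 was the highest control, and in all 15 miR-127-3p 7 was the highest mimic array.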
